A study of Arabidopsis thaliana with 10 samples.

Results

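The carpel and fruit bHLH genes HECATE1 (HEC1, AT5G67060), HECATE2 (HEC2, AT3G50330), HECATE3 (HEC3, AT5G09750), SPATULA (SPT, AT4G36930), INDEHISCENT (IND, AT4G00120) and ALCATRAZ (ALC, AT5G67110) of Arabidopsis thaliana were examined for binding by complexes of the MADS-domain transcription factors SEPALLATA3 (SEP3) and AGAMOUS (AG). These 6 of 27444 protein-coding genes were chosen by name, and every peak summit from 3000 bp upstream of the gene start to 1000 bp downstream of the gene end was taken, in each of 9 peak lists. A summit is the position of greatest fragment coverage in a peak. The lists came from DNA-affinity purification sequencing (DAP-seq), in which proteins made in vitro pull down fragments of naked genomic DNA, here from whole seedlings aged 2 weeks, so neither chromatin nor the expression of the genes enters the measurement. SEP3Δtet-AG (2 libraries) held a SEP3 splice variant that lacks a stretch of the tetramerisation region, SEP3-AG (3 libraries) held full-length SEP3, and SEP3 (4 libraries) was used without AG. The tags were FLAG on SEP3 or SEP3Δtet and Myc on AG, and complexes with AG passed both tags in turn (seq-DAP-seq) while SEP3 passed FLAG alone, so this step cannot be told apart from the presence of AG. A single input DNA library was the control of all 9.

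Each library list held between 473 and 9588 summits, 43308 in all. The depth worked out from the peak values, in M (1000000 fragments), was 12.3 and 20.5 for SEP3Δtet-AG, 11.9, 10.9 and 8.30 for SEP3-AG, and 22.0, 15.7, 15 and 16.9 for SEP3, against 9.55 for the input. SEP3 replicate 4 stood apart, with 8916 summits against 473, 1225 and 1915 in SEP3 replicates 1 to 3, and its peak names carried another library prefix. Counts for SEP3 are given with and without it, and leaving it out of the gene lists and of the shares of all genes was a choice made after seeing the data. Replicate protein reactions were described for the complexes with AG, but the labels tie no library to a reaction, so p-values measure only the spread between these libraries.

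In the carpel, AG and the SEPALLATA proteins specify organ identity and act upstream of a network of bHLH factors. The HEC proteins are needed for the stigma and the transmitting tract, through which pollen tubes grow, and they dimerise with SPT, which is needed for the tissues of the carpel margins and the style. IND and ALC act later, at the valve margin of the fruit, where IND sets up the layers along which the fruit opens and ALC is needed for the separation layer. MADS-domain dimers recognise the CArG box, which is CC followed by 6 A or T and then GG, and tetramers can hold a pair of such boxes at once.

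The regions of the 6 genes held 44 summits, and summits within 200 bp of a better-ranked one were counted as the same site, which gave 15 sites. SEP3Δtet-AG had a summit in at least 2 libraries at 4 of the 6 genes, against 11.3% of all protein-coding genes. SEP3-AG had one at 5 of the 6, against 36% of all genes. SEP3 had one at 3 of the 6, against 11.3% of all genes, and at 1 of the 6 without SEP3 replicate 3 or without replicate 4. Without replicate 4 the share of all genes was 4.71%, and the share without replicate 3 is not given here. Counted in every library of a complex, the genes were 4 for SEP3Δtet-AG, 5 for SEP3-AG and 1 for SEP3, against 11.3%, 29.5% and 1.98% of all genes, and counted in any library they were 4, 5 and 5, against 17.3%, 42.6% and 36.3%. Without SEP3 replicate 4, a summit in any SEP3 library was found at 3 of the 6 genes, against 11.6% of all genes. HEC1, HEC3, IND and SPT had a summit in every library of both complexes with AG, a pattern of 10.2% of all genes. ALC had a summit in every SEP3-AG library and in none of the other 6 libraries, a pattern shared by 7.44% of genes. HEC2 had summits only in SEP3 replicate 4, and 8.93% of genes had a summit in some SEP3 library and in none with AG, or 0.944% without replicate 4, when none of the 6 genes did. Of the 5 genes with a summit in every SEP3-AG library, 4 also had one in both SEP3Δtet-AG libraries, against 34.4% of the 8097 genes of the genome with a summit in every SEP3-AG library.

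**Figure D1:**
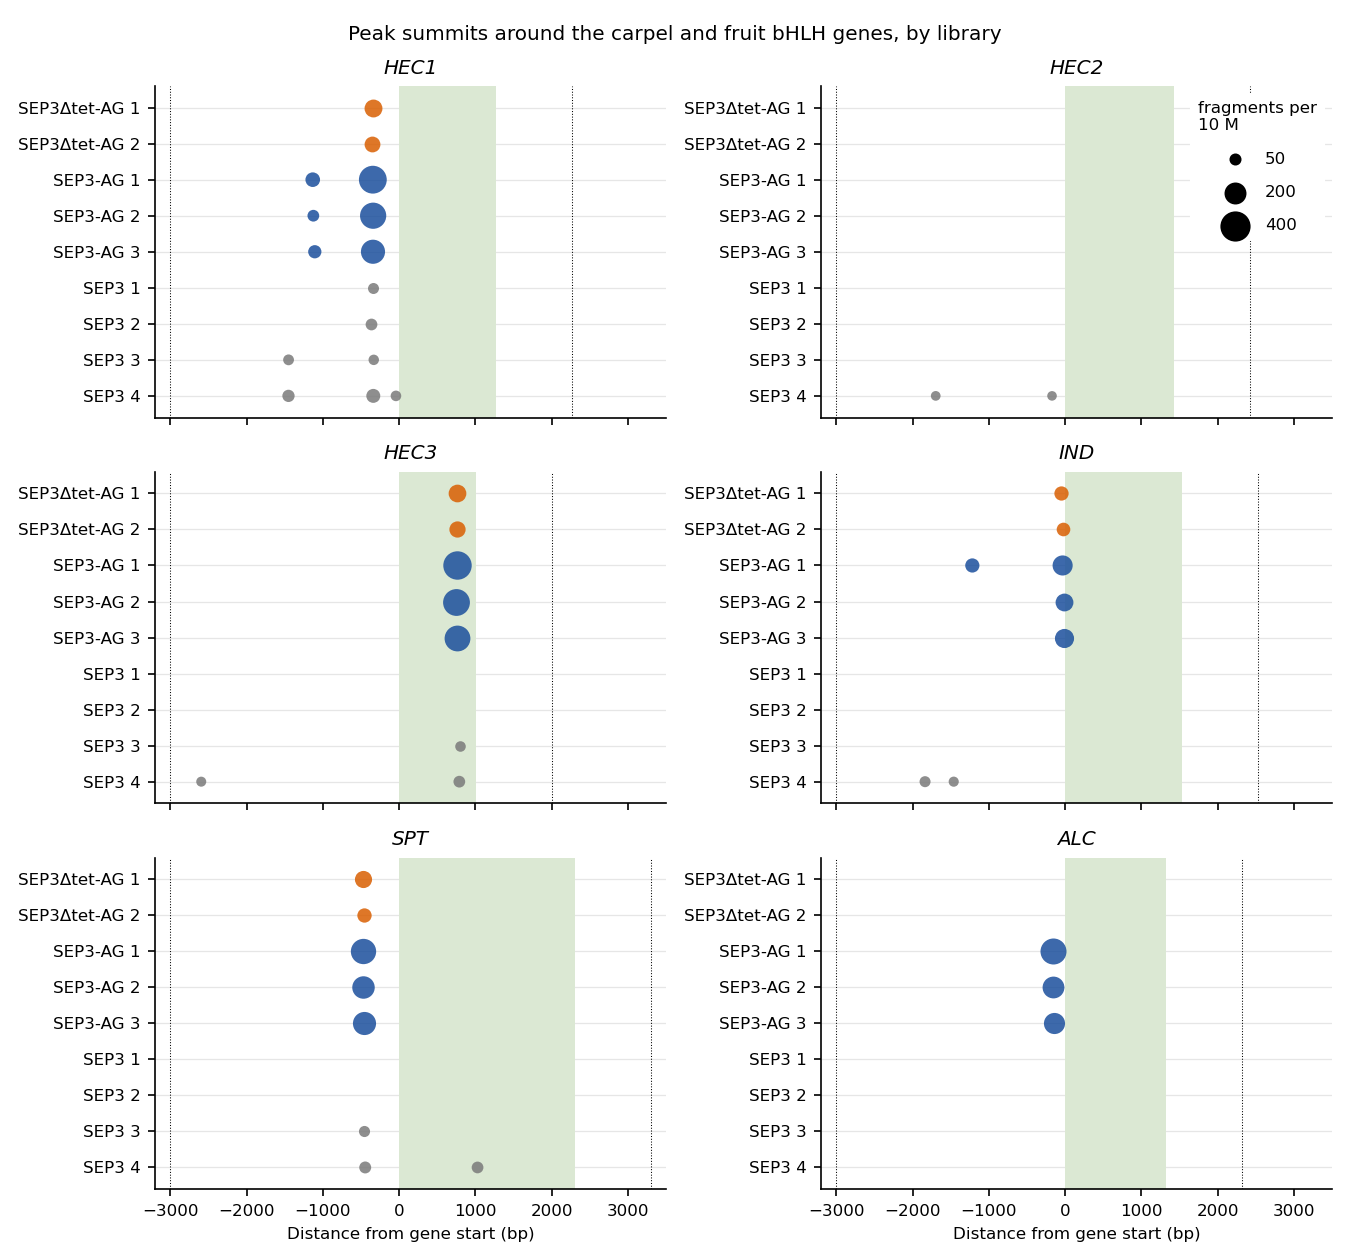
Summits in the region of each gene, placed by distance from the gene start in bp (x axis) and by library (rows), with symbol area scaled to the fragments at the summit per 10 M in the library; green is the gene body and dotted lines are the ends of the region searched. HEC1, HEC3, IND, SPT and ALC each have a column of SEP3-AG summits at the same place in all 3 libraries, the ALC column has no counterpart in the other complexes, and HEC2 has 2 small summits in SEP3 replicate 4 alone.

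Of the 15 sites, 7 were called in at least 2 libraries of a complex and 8 in a single library, 7 of these in SEP3 replicate 4 and 1 in SEP3-AG replicate 1. Sites are named by gene and by the distance in bp of their median summit from the annotated gene start, with upstream distances negative. Their sequences follow, for reading beside the CArG box matches described further on. They are read from the TAIR10.1 assembly of RefSeq, 5′ to 3′ on the strand of the gene, and capitals mark the closest match to a CArG box within 50 bp of the best summit where it has at most 2 mismatches. The HEC1 -340 (chr5:26765604-26765704), HEC1 -1124 (chr5:26764810-26764910) and HEC1 -1449 (chr5:26764492-26764592) stretches are on the plus strand, as is SPT -463 (chr4:17413573-17413673). ALC -159 (chr5:26786540-26786640), IND -28 (chr4:43198-43262, cut at the gene start) and HEC3 +765 (chr5:3026325-3026350, the bases around the box only) are on the minus strand.
HEC1 -340: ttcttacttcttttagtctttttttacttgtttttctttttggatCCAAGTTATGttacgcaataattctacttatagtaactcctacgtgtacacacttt
HEC1 -1124: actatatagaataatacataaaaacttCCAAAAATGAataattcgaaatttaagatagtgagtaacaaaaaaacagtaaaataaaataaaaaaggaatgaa
HEC1 -1449: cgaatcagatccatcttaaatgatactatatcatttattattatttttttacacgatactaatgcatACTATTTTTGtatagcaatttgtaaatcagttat
HEC3 +765: gtaatggtGCAATTATGGaaagtgtt
SPT -463: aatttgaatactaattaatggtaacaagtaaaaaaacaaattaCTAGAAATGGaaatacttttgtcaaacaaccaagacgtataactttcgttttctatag
IND -28: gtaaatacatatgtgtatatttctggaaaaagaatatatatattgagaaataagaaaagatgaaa
ALC -159: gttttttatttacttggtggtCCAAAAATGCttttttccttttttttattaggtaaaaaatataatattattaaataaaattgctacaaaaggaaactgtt

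HEC1 lies on chromosome 5 from 26765992 to 26767257 on the plus strand, and its HEC1 -340 site was the only member site called in all 9 libraries. In the genome 317 sites were called in every library, 3.87% of the 8201 sites called in at least 2 SEP3-AG libraries. The 9 summits lay between -363 and -332 from the gene start, within 31 bp of each other. Counts of fragments at a summit are given per 10 M fragments of the library, and were recovered from the deposited fold enrichment and p-value. HEC1 -340 had 162 and 127 fragments per 10 M in SEP3Δtet-AG, 393, 348 and 295 in SEP3-AG, and 61.5, 70.0, 55.3 and 98.9 in SEP3. The 3 complexes did not overlap, and SEP3-AG was the highest. How many sites of the genome are likewise without overlap was not counted, here or for the sites below. The fold enrichment over the input was 5.95 and 4.73 in SEP3Δtet-AG, 12.1, 11.8 and 12.7 in SEP3-AG, and 3.97, 4.26, 3.15 and 5.51 in SEP3. In the SEP3-AG lists the site ranked within the strongest 4.78% to 5.73% of summits, and in SEP3 replicate 4 within the strongest 3.17%. Of the other 3 SEP3 lists, the rank ran from 15.6% in replicate 1 to 56.7% in replicate 3.

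HEC1 had 2 further sites upstream, told apart only by their summits, which came from different complexes. Their peak regions overlapped in part. The SEP3 replicate 4 peak at HEC1 -1449 ran from 26764302 to 26764857, and the SEP3-AG replicate 1 peak at HEC1 -1124 from 26764625 to 26765061. A called SEP3 peak thus covered part of the HEC1 -1124 region. HEC1 -1124 had summits in SEP3-AG only, with 108, 70.0 and 89.1 fragments per 10 M, and it ranked in the weakest part of the lists, at 76.9% to 98.6%. HEC1 -1449 was called in SEP3 replicates 3 and 4 only, with 59.3 and 76.4 fragments per 10 M. The approximate count needed for a call at HEC1 -1449 was 53.5 and 54.6 per 10 M in SEP3Δtet-AG, 60.4, 56.2 and 48.2 in SEP3-AG, and 37.8 and 38.8 in SEP3 replicates 1 and 2. The 59.3 of SEP3 replicate 3 is near these limits in the complexes with AG. Another summit at -41, with 56.9 fragments per 10 M, was found in SEP3 replicate 4 alone. The HEC1 start is the nearest gene start to each of these sites, and HEC1 -340 also lies -1945 bp from the start of RALFL34 (AT5G67070).

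HEC3 lies on chromosome 5 from 3026109 to 3027114 on the minus strand, and unlike those of HEC1, SPT, IND and ALC its strong site was not upstream but in the annotated 3′ UTR, at +765. HEC3 +765 had 159 and 134 fragments per 10 M in SEP3Δtet-AG, 409, 365 and 337 in SEP3-AG, and 56.7 and 69.9 in SEP3 replicates 3 and 4. No summit was called there in SEP3 replicates 1 and 2, where about 40.1 and 41.3 would have been needed. The groups again did not overlap, and HEC3 +765 had the highest mean count of the member sites in SEP3-AG and averaged 146 ± 17.9 per 10 M in SEP3Δtet-AG (SD, n = 2) and 370.4 ± 36.4 in SEP3-AG (SD, n = 3). In SEP3-AG replicate 1, the count of 488 fragments has a 95% exact Poisson interval from 446 to 533, and such intervals cover counting error only. The site ranked at 18.3% and 18.5% in SEP3Δtet-AG and within the strongest 3.16% to 4.23% in SEP3-AG. The summits of the complexes with AG lay between +753 and +765, and those of SEP3 replicates 3 and 4 at +793 and +790. HEC3 +765 is also -1593 bp from the start of HAM2 (AT5G09740), a histone acetyltransferase gene, but the HEC3 start is nearer. A summit at -2594 in SEP3 replicate 4 alone, with 50.9 fragments per 10 M, is nearer to the start of AT5G09760 than to that of HEC3.

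HEC2 lies on chromosome 3 from 18656955 to 18658377 on the minus strand and differed from HEC1 and HEC3, since no complex called it in 2 libraries. Its 2 summits, at -171 and -1696, came from SEP3 replicate 4 and had 46.8 and 48.0 fragments per 10 M. The first was a count of 79 fragments, with a 95% exact Poisson interval from 62.5 to 98.5. The fold enrichments were 2.69 and 2.58, and the summits ranked at 89.0% and 91.3% of their list, near its weak end. Without SEP3 replicate 4, HEC2 had no summit in any library. A HEC2 site below the limit of calling would not appear in these lists.

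SPT lies on chromosome 4 from 17414083 to 17416386 on the plus strand, and its site resembled HEC1 -340 and HEC3 +765 in its pattern over the complexes. SPT -463 had 149 and 104 fragments per 10 M in SEP3Δtet-AG, 325, 256 and 271 in SEP3-AG, and 62.7 and 72.3 in SEP3 replicates 3 and 4. The values of the 3 complexes did not overlap, and the 7 summits lay within 35 bp, from -479 to -444. In SEP3 replicates 1 and 2, which had no summit, about 45.1 and 46.4 per 10 M would have been needed. The site ranked at 26.8% and 53.6% in SEP3Δtet-AG and within the strongest 11.2% to 20.1% in SEP3-AG. A second summit, at +1029 in a coding exon, was found in SEP3 replicate 4 alone, with 69.9 fragments per 10 M.

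IND lies on chromosome 4 from 41665 to 43197 on the minus strand, and its main site was called only by complexes with AG. IND -28 had 103 and 94.1 fragments per 10 M in SEP3Δtet-AG and 205, 161 and 185 in SEP3-AG. It was the weakest of the member sites that both complexes called, and the values still did not overlap. No SEP3 library had a summit there, with about 37.8 to 40.01 per 10 M needed for a call. The summits spread over 39 bp, from -54 to -15, next to the annotated gene start, which is also the start of the coding sequence in this annotation. The site ranked at 46.9% and 52.1% in SEP3Δtet-AG and at 24.2% to 38.6% in SEP3-AG. The 3 other IND sites were each in 1 library, at -1216 in SEP3-AG replicate 1 and at -1460 and -1836 in SEP3 replicate 4.

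ALC lies on chromosome 5 from 26785106 to 26786431 on the minus strand and was called by SEP3-AG alone. ALC -159 had 343, 241 and 226 fragments per 10 M in the 3 SEP3-AG libraries, with fold enrichments of 9.84, 7.63 and 8.005. The summits lay within 15 bp and ranked at 10.3% to 20.0% of their lists. This was close to the strength of SPT -463 in SEP3-AG, yet ALC -159 had no summit in either SEP3Δtet-AG library, where about 58.4 and 59.0 per 10 M would have been needed, nor in SEP3, where 41.0 to 43.3 would have been. Of the 200 SEP3-AG sites nearest to ALC -159 in rank, 43% had no SEP3Δtet-AG summit and 24.5% had a summit in neither other complex, as at ALC. For IND -28, of the 200 sites nearest in rank, 64.5% had no SEP3Δtet-AG summit. For HEC1 -340 and HEC3 +765 that share was 21.5% and 17%, and for SPT -463 it was 43%. The ALC gene lies within the annotated span of ICU2 (AT5G67100), a DNA polymerase gene on the plus strand, whose end coincides with the ALC start.

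**Figure D2:**
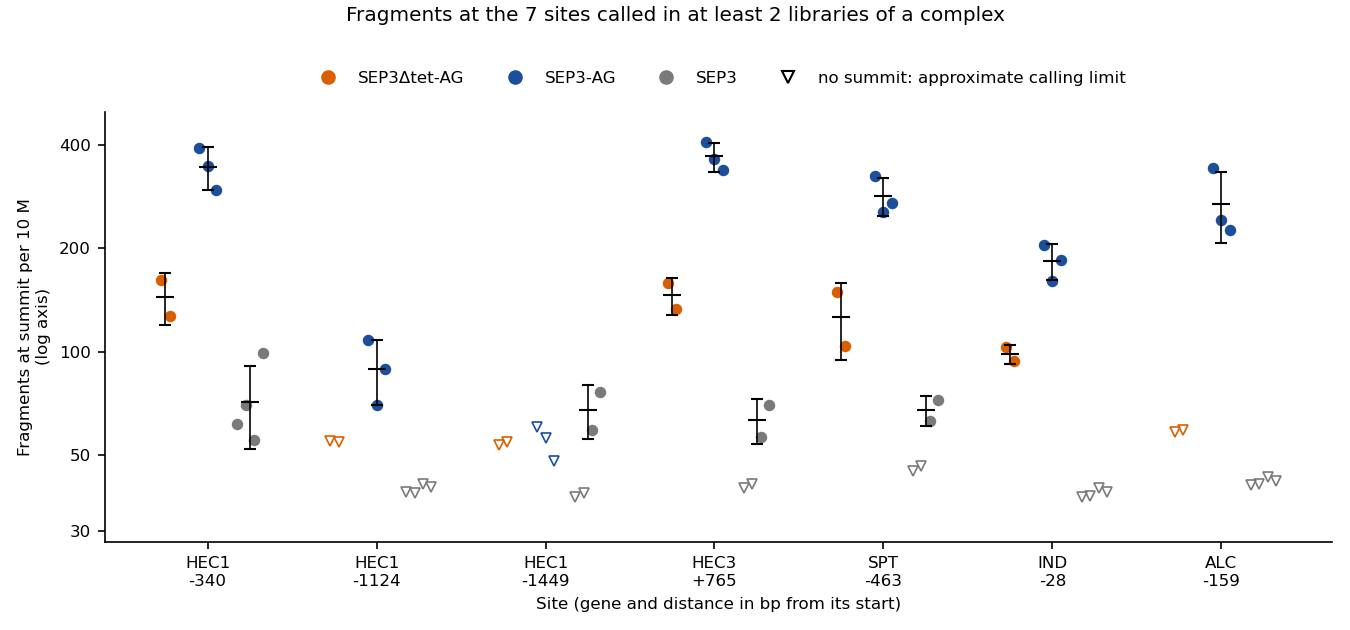
Fragments at the summit per 10 M (log axis) at the 7 sites called in at least 2 libraries of a complex, 1 filled circle per library, with the mean and SD of the libraries that called the site; open triangles give the approximate count needed for a call in a library without a summit. At HEC1 -340, HEC3 +765, IND -28 and SPT -463 every SEP3-AG circle lies above both SEP3Δtet-AG circles, and at ALC -159 the SEP3-AG circles, at 226 to 343, stand far above the open triangles of both other complexes.

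The comparison of SEP3Δtet-AG with SEP3-AG asks what the tetramerisation region adds to binding. The number of member sites per library was 4 and 4 in SEP3Δtet-AG, against 7, 6 and 6 in SEP3-AG, a difference of -2.33 in which the groups did not overlap (exact permutation test, two-sided, p = 0.2, adjusted p = 0.6 over 3 comparisons). The lists differed in length, with 3331 and 2329 summits in SEP3Δtet-AG, against 8888, 6643 and 9588 in SEP3-AG. As a share of the summits in its list, the member sites were higher in SEP3Δtet-AG, at 0.120% and 0.172%, against 0.0788%, 0.0903% and 0.0626% in SEP3-AG. With at most the strongest 2329 summits of each list, the difference in the number of sites was -0.33 (exact permutation test, p = 1), and both complexes then had 4 sites in at least 2 libraries. The 2 sites that were in every SEP3-AG library and in no SEP3Δtet-AG library were ALC -159 and HEC1 -1124, and of all 8201 SEP3-AG sites 64.5% had no SEP3Δtet-AG summit. At HEC1 -1124 about 55.1 and 54.6 fragments per 10 M would have been needed for a call in SEP3Δtet-AG, and of the 200 SEP3-AG sites nearest to it in rank 86.5% had no SEP3Δtet-AG summit. At the 4 sites that both complexes called, the fragments per 10 M were lower in SEP3Δtet-AG, and no SEP3Δtet-AG value reached the lowest of SEP3-AG. How many sites of the genome were likewise without overlap was not counted. The mean log2 difference was -1.26 ± 0.21 at HEC1 -340, -1.34 ± 0.15 at HEC3 +765, -0.89 ± 0.12 at IND -28 and -1.18 ± 0.28 at SPT -463 (SEP3Δtet-AG minus SEP3-AG, SE, n = 2 and 3). For each of the 4, the exact permutation test gave p = 0.2, the smallest p that 2 against 3 libraries allow, and the adjusted p over 10 tests was 0.25. The same comparison over all 1953 sites called in at least 2 libraries of both complexes had a median of -0.81 and a 95th percentile of 0.048. Lower values in SEP3Δtet-AG were thus usual in the genome. A more negative value than that of HEC3 +765 was found at 18.5% of these sites, than that of HEC1 -340 at 22.9%, than that of SPT -463 at 26.6% and than that of IND -28 at 43.9%.

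The comparison of SEP3-AG with SEP3 addresses the contribution of AG, together with the added purification step. The number of member sites per library was 7, 6 and 6 in SEP3-AG, against 1, 1, 4 and 11 in SEP3, a difference of 2.08 (exact permutation test, p = 0.514, adjusted p = 0.771), and of 4.33 without SEP3 replicate 4. With the strongest 473 summits of each list it was 0.917. The log2 difference in fragments per 10 M was 2.30 ± 0.22 at HEC1 -340 (n = 3 and 4), 2.55 ± 0.17 at HEC3 +765 and 2.07 ± 0.15 at SPT -463 (SE, n = 3 and 2), beside a median of 1.64 over 1736 sites. Among the libraries that called the 3 sites, every SEP3-AG value lay above every SEP3 value. How many of the 1736 sites were likewise without overlap was not counted. The mean log2 difference was negative at none of the 1736 sites, so higher values in SEP3-AG were usual in the genome. The exact permutation test gave p = 0.0571 at HEC1 -340 and p = 0.2 at HEC3 +765 and SPT -463, each the smallest p that the number of libraries allows, with an adjusted p of 0.25. The shortest peak region, taken as the fragment length, was 258 to 262 bp in SEP3Δtet-AG and 220 to 313 bp in SEP3-AG, against 146 to 170 bp in SEP3. Longer fragments pile up higher for the same number. Fragment length cannot be told apart from the presence of AG here, and its effect was not tested. With the deposited fold enrichment in place of fragment counts, an alternative chosen after seeing the data, the log2 differences were 1.56 at HEC1 -340, 2.01 at HEC3 +765 and 1.46 at SPT -463, beside a median of 0.96 over all 1736 sites.

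SEP3Δtet-AG held 4 and 4 member sites per library, against 1, 1, 4 and 11 in SEP3, a difference of -0.25 (exact permutation test, p = 1, adjusted p = 1). With so wide a spread in SEP3, the test does not show that the numbers are alike. Without SEP3 replicate 4 the difference was 2, so its direction rests on that library. At the 3 sites that both called, SEP3Δtet-AG was higher in fragments per 10 M by a log2 difference of 1.04 ± 0.25 at HEC1 -340 (n = 2 and 4), 1.21 ± 0.20 at HEC3 +765 and 0.89 ± 0.28 at SPT -463 (SE, n = 2 and 2), beside a median of 0.88 over 1173 sites. The exact permutation test gave p = 0.133 at HEC1 -340 and p = 0.333 at the other two, the smallest that the libraries allow, with adjusted p of 0.25 and 0.333. With fold enrichment in place of fragment counts the log2 differences were 0.36, 0.74 and 0.36 at HEC1 -340, HEC3 +765 and SPT -463, and the median was 0.26. At HEC1 -340 the fold enrichments of SEP3Δtet-AG, at 5.95 and 4.73, then overlapped those of SEP3, at 3.15 to 5.51.

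**Figure D3:**
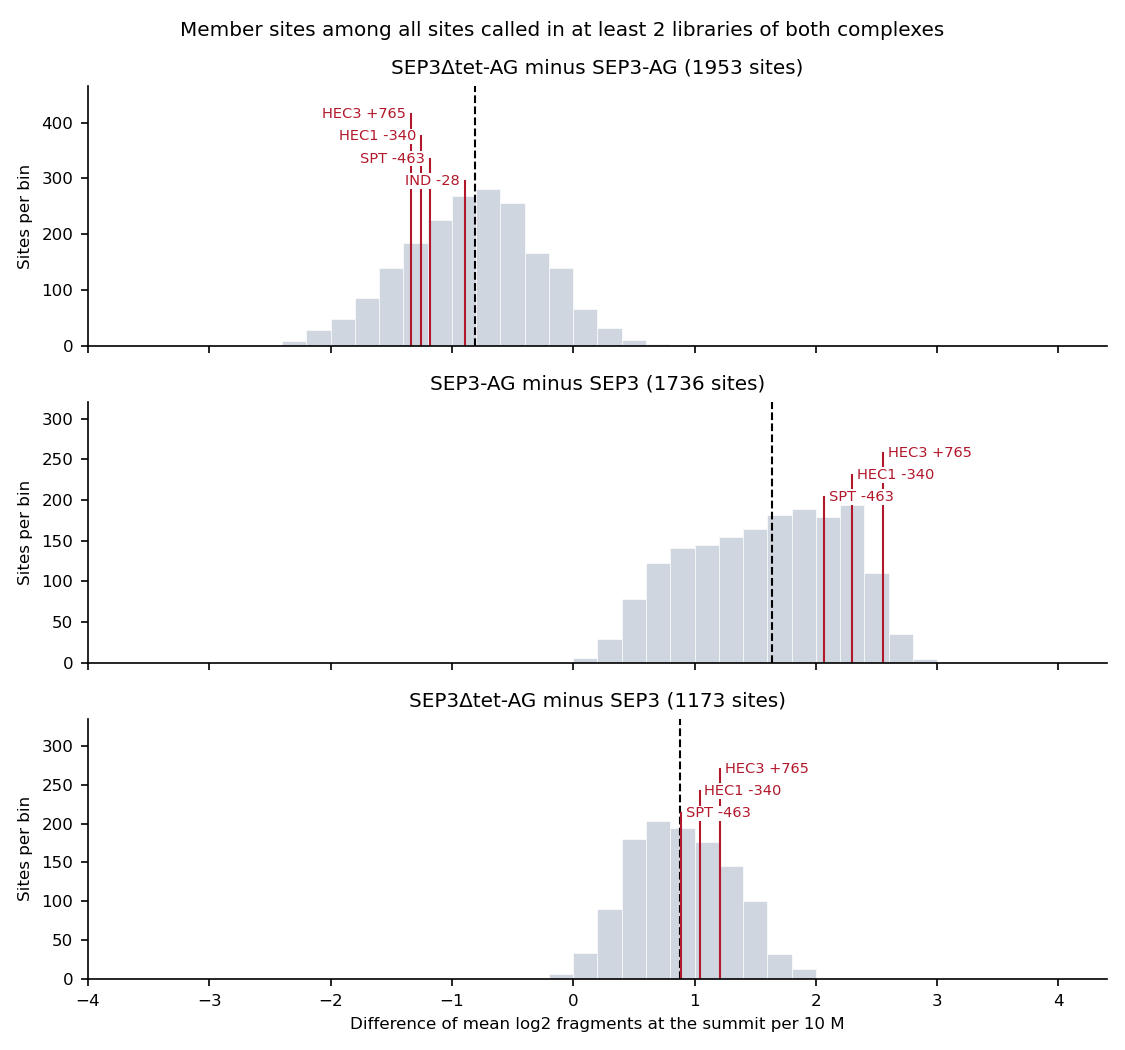
Histograms, for the 3 comparisons, of the difference of mean log2 fragments at the summit per 10 M (x axis) over all sites called in at least 2 libraries of both complexes (y axis, sites per bin), with the median dashed and the member sites as red lines. In SEP3Δtet-AG minus SEP3-AG the 4 member sites, at -1.34 to -0.89, lie to the left of the median of -0.81, and in SEP3-AG minus SEP3 the 3 member sites, at 2.07 to 2.55, lie to the right of the median of 1.64.

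None of the 7 sites called in at least 2 libraries of a complex held an exact CArG box within 50 bp of its best summit, and nor did any of the 15 member sites. Of all 8876 such sites in the genome, 9.07% held one, and of windows of the same length centred 300 bp upstream of every gene start, 0.703% did. With 1 mismatch allowed, 3 of the 7 held a box, or 42.9%, against 53.2% of all such sites and 13.1% of the promoter windows. These were GCAATTATGG at HEC3 +765, CCAAAAATGA at HEC1 -1124 and CCAAAAATGC at ALC -159. HEC1 -340, the site bound in all libraries, had within 50 bp only the match with 2 mismatches CCAAGTTATG, centred on the summit, while TCATTAATGG, with 1 mismatch, lay at -63.5 bp from it (upstream negative). SPT -463 had CTAGAAATGG and HEC1 -1449 had ACTATTTTTG, each with 2. IND -28 had no match with fewer than 3 mismatches. Of the 403 SEP3-AG sites that ranked as high as HEC1 -340 or higher, 28.5% likewise had no box with fewer than 2 mismatches, and of all 8201 SEP3-AG sites 46.5% had none. At HEC3 +765 a pair of matches with 1 mismatch each lay within 100 bp of the summit, at 18.5 and 57.5 bp from it, with starts 39 bp apart. Over the whole regions searched, HEC1 and IND held 1 exact box each, at +1985 and -1891, with no summit within 50 bp, and the other 4 genes held none, while 33.5% of all gene regions hold at least 1. The IND box, CCTATTTTGG, lay at -55.5 bp from the IND -1836 summit of SEP3 replicate 4, so 1 of the 15 member sites had an exact box within 100 bp, or 6.67%, against 10.6% of all sites called in at least 2 libraries of a complex. The motif reads alike on both strands, so a match counts for both, and a match describes only the letters under a summit.

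**Figure D4:**
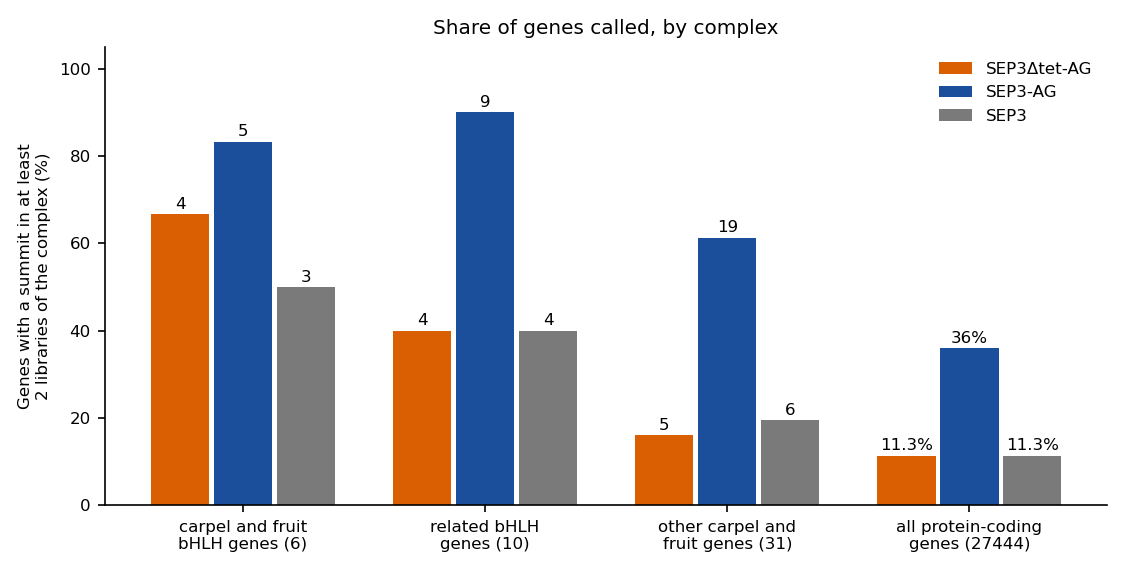
Percentage of genes with a summit in at least 2 libraries of each complex (y axis), for the 6 carpel and fruit bHLH genes, the 10 related bHLH genes, the 31 other carpel and fruit genes and all 27444 protein-coding genes, with the number of genes above each bar (the percentage for all genes). SEP3-AG has the tallest bar in all 4 groups, at 5 of 6, 9 of 10, 19 of 31 and 36%, and the SEP3Δtet-AG bar is tallest for the 6 genes, at 4 of 6.

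The genes around this network were taken as 2 lists. Of 10 related bHLH genes, which are the phytochrome-interacting factors and their relatives near SPT and ALC, and AT3G21330, SEP3Δtet-AG called 4, SEP3-AG 9 and SEP3 4 in at least 2 libraries, against 11.3%, 36% and 11.3% of all genes. Without replicate 4 SEP3 called 1 of the 10, against 4.71% of all genes. The 6 of the 10 with a summit in every SEP3-AG library, against 29.5% of all genes, were PIF1, PIF3, PIF4, PIF5, UNE10 and AT3G21330. The highest fold enrichment in SEP3-AG was 14.02 at AT3G21330, at +195 from its start, and AT3G21330 was, like HEC1, called in all 9 libraries. PIF4 had a fold enrichment of 13.4 at +574 and PIF5 one of 12.03 at +680, both factors of light and temperature signalling, and both were called in both SEP3Δtet-AG libraries. UNE10 reached 12.9 in SEP3-AG at +3030 and PIF1, an inhibitor of germination in the dark, reached 11.6 at +2591, and neither had a SEP3Δtet-AG summit. PIF3 reached 6.74 at +1294.

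Of 31 other carpel and fruit genes, SEP3Δtet-AG called 5, SEP3-AG 19 and SEP3 6 in at least 2 libraries, or 16.1%, 61.3% and 19.4%. The shares of all genes were 11.3%, 36% and 11.3%. Without replicate 4 SEP3 called 2 of the 31, or 6.45%, against 4.71% of all genes. Every SEP3-AG library had a summit at 17 of the 31, against 29.5% of all genes. Of these 17, 4 also had one in both SEP3Δtet-AG libraries, among them SHP2, BEE3 and CUC2. In the genome 34.4% of the genes with a summit in every SEP3-AG library did so. SHATTERPROOF2 (SHP2), a MADS-box gene that acts upstream of IND and ALC at the valve margin, was called in all 9 libraries and reached a fold enrichment of 11.6 in SEP3-AG at -260, while its close relative SHP1 had no summit in any library. BEE3, a bHLH gene of the transmitting tract, was also called in all 9 and reached 11.3 at +424, and its relative BEE1 reached 11.0 at -2031 and had no summit outside SEP3-AG. HAF, the third bHLH gene of that group, reached 5.65 at -2088. Of the other regulators, FUL, which sets valve identity, reached 10.7 at +1198, JAG 9.70 at -1912, ETT, an auxin response factor of the gynoecium, 8.71 at -1227, CUC2 7.36 at +2860, NGA2 and NGA4, needed for the style, 6.46 at -697 and 6.18 at -679, RPL 5.04 at -2563, STY1 4.76 at -229 and LUG 4.24 at -629. Of genes of hormone synthesis, signalling and fruit opening, the gibberellin synthesis gene GA3OX1 reached 5.71 at -1741, the polygalacturonase gene ADPG2 5.53 at -1846 and the kinase gene WAG2 5.05 at +1993.

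Other genes had nearly the same pattern of best fold enrichment over the 9 libraries as the members called in at least 4 libraries. Likeness was Pearson's r over the 9 libraries of log2 fold enrichment, set to 0 where a library had no summit, so that it reflects which libraries made a call and their depth as well as strength, and it is given as a description. For HEC1 the 3 most alike were LBA1 and AT5G47020, which share a summit, and AT4G36170, each with r of 0.99. For HEC3 they were PPOX, AT2G30960 and ASP1, each with r of 0.998, and AT2G30960 and ASP1 had the same values throughout. For SPT they were NUDT7, WOX8 and AT5G45990, each with r of 0.998, and WOX8 and AT5G45990 had the same values throughout. For IND they were ECT6, AT4G34380 and XLG2, each with r of 0.999, and AT4G34380 and XLG2 likewise had the same values. Genes with the same values do not count as separate cases. HEC1 at 11.8 to 12.7 and AT4G36170 at 9.84 to 11.0 in SEP3-AG were at similar fold enrichments, as were HEC3 at 11.98 to 12.8 and AT2G30960 at 12.3 to 12.7.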

How the data were processed

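Reads were trimmed by the authors and mapped with Bowtie2 to TAIR10 without the organelle genomes, and only uniquely placed reads without duplicates were kept. The authors ran MACS2 library by library, with the input DNA as control (genome size 120000000 bp, q of at most 0.0001, several summits allowed). The deposited lists hold, for each summit, a fold enrichment, which is a ratio to the local background, −log10 p and −log10 q values, and a score, which was not used. The position of the summit in the deposited lists was added to the region's start. Base calls came from bcl2fastq 2.17 per the labels.

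From fold enrichment and p-value the whole number of fragments at each summit was recovered, since MACS2 scales whichever of library and input is deeper by a single factor. Counts came out whole within 0.01 at 100% of summits in every library. The depth also rests on the shortest peak region as the fragment length, so it is approximate. The limit of calling at a site was taken from the lowest −log10 p in a list and the background there, which other libraries predict with a median deviation of 0.42% (6.97% at the 90th percentile). Peak coordinates lie on TAIR10, whose chromosomes are those of the TAIR10.1 annotation used here, and are 1-based.

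Libraries were compared by exact permutation tests, two-sided, in which p is 2 times the smaller tail, so that none of the comparisons can reach p = 0.05. Benjamini-Hochberg adjustment was over the 3 comparisons of site numbers and the 10 of fragment counts. Libraries with no summit at a site were left out of its fragment comparison. Alternatives were a stricter q, other regions, other site widths, equal list lengths, other numbers of libraries for a call, each library left out and a replicate block. The scripts were tested on simulated data. Same-numbered libraries had r from -0.28 to 0.01 over 483 genes in their deviations, and differently numbered ones from -0.23 to 0.28. With 2 SEP3Δtet-AG libraries such values mirror each other, so they cannot show whether libraries shared a batch. The members, the lists of related genes and the tests were chosen with earlier results of these data known. The rule for naming took all members, list genes called in every SEP3-AG library, nearer neighbours and the 3 most alike genes, of which an item is not reported here; SHP1 and the other genes of a summit's region were named after seeing the values. Analyses used Python 3.11.15, numpy 2.4.6, pandas 2.3.3 and scipy 1.17.1.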

Additional observations from a re-analysis of the deposited data

How the results depend on the processing

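The differences in fragments at HEC1 -340, HEC3 +765, IND -28 and SPT -463 kept their direction in all 69 recomputations, with each library left out or with fold enrichment in place of fragments. Leaving out a library could not have reversed them, because the values of the complexes did not overlap. Fold enrichment is no independent check either, since the fragment counts were recovered from it. Across the SEP3Δtet-AG minus SEP3-AG comparisons that left out a library, the log2 difference ran from -1.44 to -1.08 at HEC1 -340, from -1.47 to -1.22 at HEC3 +765, from -0.98 to -0.81 at IND -28 and from -1.44 to -0.92 at SPT -463. Leaving out a library changed neither the 5 genes nor the 6 sites counted for SEP3-AG, while for SEP3 the counts ran from 1 to 3 genes and from 1 to 4 sites. SEP3Δtet-AG has 2 libraries, so a count over at least 2 libraries could not be made without one of them. With a −log10 q of at least 10, SEP3 had 1 gene and 2 sites, and in promoters alone it had 2 sites. With the 473 top summits of each list, the counts of genes, and of sites alike, were 0 in SEP3Δtet-AG, 2 in SEP3-AG and 1 in SEP3. With at most 2329 summits, they were 4 genes and 4 sites in SEP3Δtet-AG, 4 and 4 in SEP3-AG, and 1 and 2 in SEP3. For a stricter q, promoters alone or shortened lists, the shares of all genes are not given here. Counts under those settings therefore cannot be set against the genome. Called in any library, SEP3 had 5 genes and 11 sites, and in every library 1 and 1. The difference in sites per library between SEP3Δtet-AG and SEP3, -0.25, turned to 1.5 at a −log10 q of at least 10, 1 in promoters alone, 0.25 with 473 summits and 2 with at most 2329, and ran from -1.33 to 2 with a library left out, the highest without SEP3 replicate 4. With a library left out, the difference of SEP3Δtet-AG minus SEP3-AG ran from -2.5 to -2 and that of SEP3-AG minus SEP3 from 1 to 4.33. SEP3Δtet-AG minus SEP3-AG was -0.33 with at most 2329 summits (exact permutation p = 1), -0.67 with 473 and -1 in promoters, and SEP3-AG minus SEP3 was 0.917 with 473. The cause of these changes was not tested. With the replicate number as a block, the differences were -2.5 for SEP3Δtet-AG minus SEP3-AG (exact sign-flip p = 0.5), 4.33 for SEP3-AG minus SEP3 (p = 0.25) and 3 for SEP3Δtet-AG minus SEP3 (p = 0.5), but the libraries share only a number. A box with 1 mismatch was found at 3 of the 7 sites and one with 2 mismatches at 6, and none of the 7 had a box at 25 or 100 bp without a mismatch. A missing summit shows only that no peak passed the limit of calling in that library. Depth, at 8.30 to 22.0 M (1000000 fragments), did not order the lists by length. The deepest library, SEP3 replicate 1, had the fewest summits, 473, and the shallowest, SEP3-AG replicate 3, had the most, 9588.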
